A study of Mus musculus with 8 samples.

Results

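Type I interferon-stimulated genes were followed in RNA sequencing of colon from DCIR-/- and wild-type mice of the strain BALB/cA. DCIR-/- mice lack the inhibitory lectin receptor DCIR of myeloid cells, encoded by Clec4a2. The genes were chosen by name, 45 in all, and 43 of them had a mean of at least 1 TPM (a level per length of gene, scaled to the total of the library) over the 8 libraries and were kept. These 43 stand among 16855 genes that pass the same limit, of 54665 annotated genes. The other 2, the oligoadenylate synthetase genes Oas1a and Oas1g, were listed at 0 TPM in every library. The lowest mean among those kept was 2.12 TPM, for Trim30d. The groups were DCIR-/- and wild-type colon at steady state, DCIR-/- and wild-type colon on day 12 after dextran sulfate sodium (DSS, which injures the epithelium), and DCIR-/- and wild-type non-polyp colon and polyps on day 112 after azoxymethane, a carcinogen, with DSS. Each group was 1 library, so single-pair differences were not tested, and every p-value is from limma fitted to the 8 libraries together. No source used here gives age, dose, the exons removed in DCIR-/- or the number of animals behind a library.

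Type I interferons bind the receptor pair IFNAR1 and IFNAR2, whose kinases JAK1 and TYK2 phosphorylate STAT factors, STAT2 among them. STAT2 and IRF9 are parts of ISGF3, a complex that binds the interferon-stimulated response element (ISRE) near the start of its target genes. The targets include sensors of foreign nucleic acid, effectors that block viral translation, entry or replication, and the factors IRF7, IRF9 and STAT2 themselves, so that part of the pathway is made by its own targets. In the intestine such genes are expressed at low levels without infection, and type III interferon drives many of the same genes in epithelium.

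The letters of the ISRE core are shown for genes that the results turn on, as the 200 bases before the gene's start in RefSeq on GRCm38.p6, read 5′ to 3′ on the gene's strand. Capitals mark the searched core, GAAA and GAAA with any 2 bases between them, or TTTC and TTTC with any 2 bases between them where it lies on the other strand, and matches may overlap. Isg15 and Ifit1 differed between the genotypes at steady state, Ifit3 and Ifit3b are near copies, Ifit1bl1 and Trim30d passed the test between polyps and steady state, and the Irf7 window has no match.
Isg15, chr4:156200819-156201018, minus strand: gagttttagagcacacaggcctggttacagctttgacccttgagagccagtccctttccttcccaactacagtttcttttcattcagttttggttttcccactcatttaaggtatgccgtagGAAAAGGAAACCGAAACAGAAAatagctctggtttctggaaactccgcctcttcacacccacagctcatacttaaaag
Ifit1, chr19:34640689-34640888, plus strand: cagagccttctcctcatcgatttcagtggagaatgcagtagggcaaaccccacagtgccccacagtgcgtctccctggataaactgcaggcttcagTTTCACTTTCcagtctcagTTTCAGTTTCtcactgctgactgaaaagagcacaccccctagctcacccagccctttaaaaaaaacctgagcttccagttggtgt
Ifit3, chr19:34583329-34583528, plus strand: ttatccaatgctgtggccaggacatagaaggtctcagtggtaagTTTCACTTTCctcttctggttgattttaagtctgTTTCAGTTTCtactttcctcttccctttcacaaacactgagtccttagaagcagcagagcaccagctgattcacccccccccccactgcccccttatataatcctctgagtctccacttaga
Ifit3b, chr19:34607757-34607956, plus strand: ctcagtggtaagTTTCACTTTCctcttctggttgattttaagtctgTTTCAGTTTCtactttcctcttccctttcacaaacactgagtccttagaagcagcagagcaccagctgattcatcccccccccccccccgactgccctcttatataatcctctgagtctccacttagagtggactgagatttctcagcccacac
Ifit1bl1, chr19:34601969-34602168, minus strand: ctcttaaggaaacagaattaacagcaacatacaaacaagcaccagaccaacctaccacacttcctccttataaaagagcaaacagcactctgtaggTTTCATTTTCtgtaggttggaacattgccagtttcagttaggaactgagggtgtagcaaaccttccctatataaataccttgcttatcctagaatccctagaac
Trim30d, chr7:104507850-104508049, minus strand: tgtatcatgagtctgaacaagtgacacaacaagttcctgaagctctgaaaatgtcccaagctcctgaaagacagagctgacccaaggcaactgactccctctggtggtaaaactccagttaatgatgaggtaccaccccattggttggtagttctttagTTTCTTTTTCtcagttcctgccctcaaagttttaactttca
Irf7, chr7:141266425-141266624, minus strand: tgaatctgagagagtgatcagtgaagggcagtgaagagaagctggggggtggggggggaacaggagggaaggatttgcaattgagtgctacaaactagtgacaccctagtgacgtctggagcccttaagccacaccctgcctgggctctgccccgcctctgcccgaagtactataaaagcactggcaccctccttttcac

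Isg15 carried 3 overlapping matches that began 78, 72 and 66 bases before the start, and Ifit1 carried 2, at 104 and 85 bases. Ifit3 and Ifit3b each held 2 matches spaced alike, at 156 and 122 bases and at 188 and 154 bases. RefSeq windows, which run from 250 bases before to 50 bases after the start, were found for 31 of the 43 genes. The motif was present on either strand in 16 of these 31 genes (51.6%), against 1079 of all 27025 genes with a window (3.99%). Matches are a description of the letters, and binding was not measured.

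In the 8 libraries, aligned bases computed from coverage and FPKM ran from 2.70 to 3.35 gigabases. The gene deleted in DCIR-/-, Clec4a2, was at 0.659 TPM in the library labelled DCIR-/- at steady state and at 0 in the other DCIR-/- libraries, against 2.74 to 4.33 TPM in wild type, so the steady-state label is in doubt. Wif1, a secreted WNT antagonist that marks WNT-active tumours, stood at 566 TPM in the library labelled DCIR-/- non-polyp, against 2.79 TPM in wild-type non-polyp colon, and at 503 and 626 TPM in DCIR-/- and wild-type polyps, so that library resembled the polyps in this gene, against its label. Xist was at 63.0 to 104 TPM in the 4 day 112 libraries and at no more than 0.114 TPM in the 4 others, and the prostate gene Pbsn was at 0 on day 112 and at 1652 to 3943 TPM in the steady-state and DSS libraries. Day 112 cannot be told apart from these differences. Epithelial markers were present in every library, with Epcam at 1590.1 to 2419 TPM. In bulk tissue, fewer cells of a type and less RNA per cell cannot be told apart.

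The interferon-stimulated genes stood highest in the library labelled DCIR-/- at steady state. Of the 43 genes, 38 had their maximum of the 8 libraries there, whereas 21.4% of all genes tested did. The exceptions were Ifi35 and Xaf1, highest in wild-type non-polyp colon, Ifitm3, highest in DCIR-/- polyps, and Usp18 and Bst2, highest in wild-type polyps. The median of the 43 levels was 43.9 TPM in DCIR-/- and 25.7 TPM in wild type at steady state, 18.6 and 17.8 TPM in DCIR-/- and wild type after DSS, 16.1 and 19.2 TPM in DCIR-/- and wild-type non-polyp colon, and 20.6 and 16.8 TPM in DCIR-/- and wild-type polyps.

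**Figure D1:**
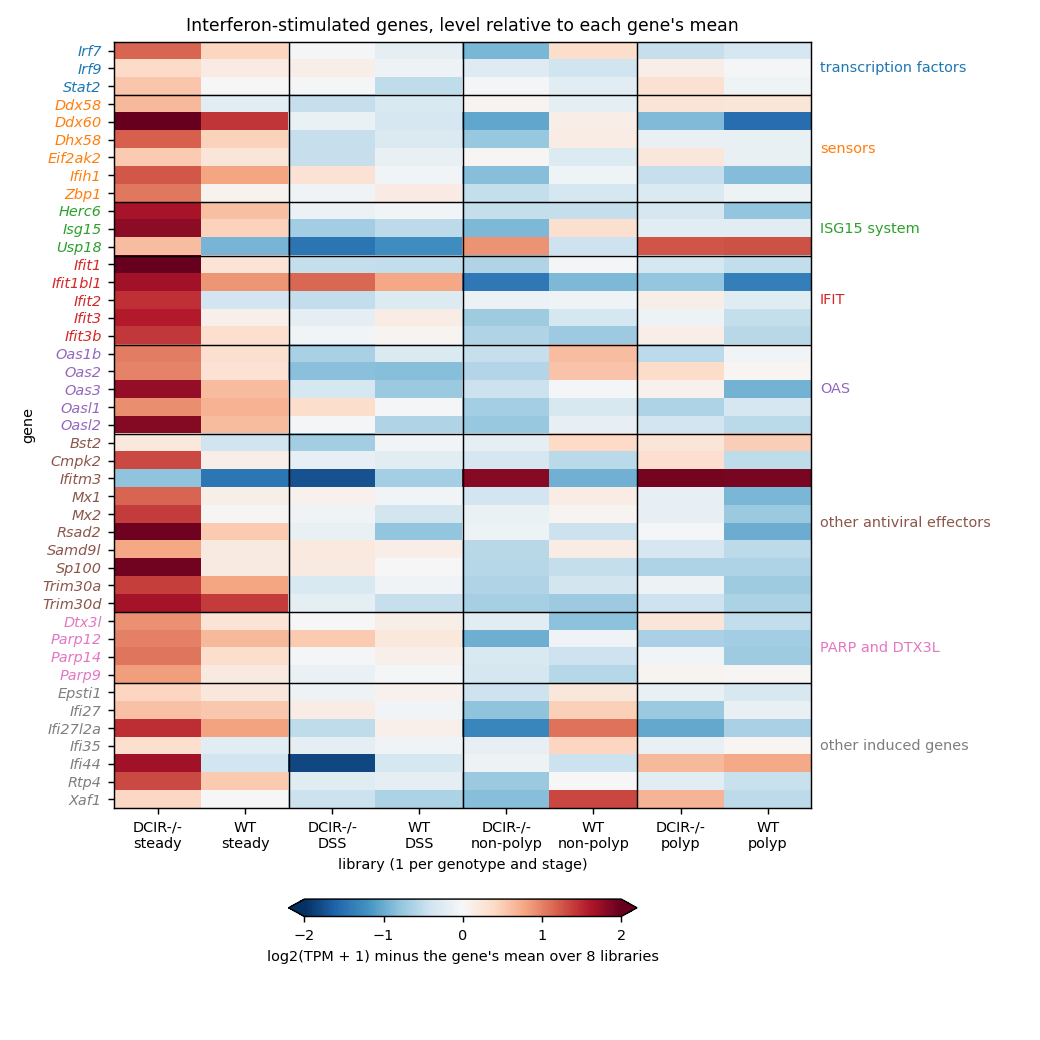
Level of each of the 43 genes (rows, grouped by role) in each of the 8 libraries (columns), as log2(TPM + 1) minus the gene's mean over the 8 libraries, with red above and blue below that mean. The first column, DCIR-/- at steady state, holds the maximum of 38 genes, and the Ifitm3 and Usp18 rows have high values in 3 of the 4 day 112 libraries.

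At steady state the library labelled DCIR-/- was above wild type for all 43 genes as deposited, and for 42 when FPKM or median-of-ratios scaling was used, against 63% of all genes tested, and 0 were lower as deposited, against 36.7%. The median difference was 0.73 on the log2(TPM + 1) scale, against 0.09 over all genes. At least 2-fold higher were 15 of 43 genes, against 3.59% of all genes tested, and 0 were at least 2-fold lower, against 1.18%. By role, the medians were 1.48 for the IFIT genes, 1.32 for the ISG15 system, 0.85 for other antiviral effectors, 0.81 for sensors, 0.71 for OAS genes, 0.64 for PARP and DTX3L, 0.58 for other induced genes and 0.56 for the transcription factors. The sensors thus stood between the effectors with the largest differences and the factors, and these orders have no replicate check.

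Adipocyte markers summed to 945 TPM in the library labelled DCIR-/- at steady state, against 65.4 TPM in wild type. The 10 macrophage and monocyte markers summed to 1582 TPM in DCIR-/-, against 1075 TPM in wild type, and the 6 T cell markers to 46.5 TPM against 24.8 TPM. The 8 B and plasma cell markers summed to 2104 TPM in DCIR-/-, against 1788 TPM in wild type. The 5 markers of plasmacytoid dendritic cells, the main producers of interferon alpha, summed to 18.0 TPM in DCIR-/-, against 11.1 TPM in wild type. Of these, Ly6d was at 8.14 TPM in DCIR-/- and 3.93 TPM in wild type, and the defining gene Siglech at 0.886 TPM in DCIR-/- and 1.04 TPM in wild type. The part of these cell types in the interferon-stimulated genes was not tested.

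**Figure D2:**
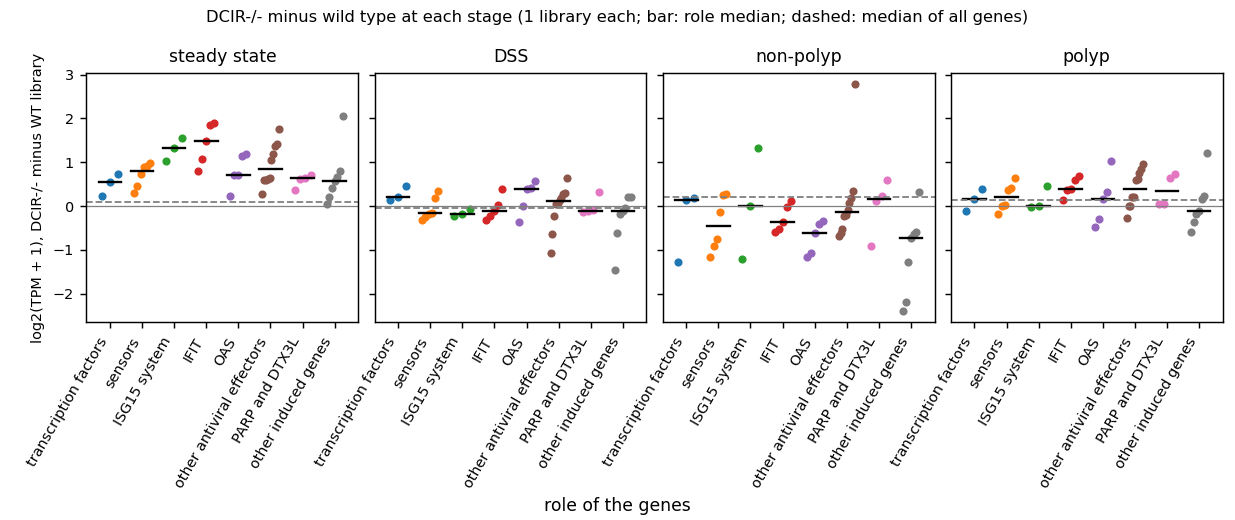
Difference of log2(TPM + 1) between the DCIR-/- and the wild-type library at each of the 4 stages (panels), with 1 point per gene, genes grouped by role, black bars for the median of a role and a dashed line for the median of all 16855 genes. All points lie above 0 at steady state, and on both sides of 0 at the other stages.

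Irf7 (ENSMUSG00000025498, chromosome 7, 141262706 to 141266481 on GRCm38) encodes the factor that amplifies interferon alpha production. In the order steady state, DSS, non-polyp and polyp, Irf7 had 241, 104, 56.3 and 77.5 TPM in DCIR-/- colon, against 145, 94.6, 137 and 84.5 TPM in wild type. DCIR-/- was therefore higher at the first 2 stages and lower at the last 2, with log2 differences of 0.73, 0.14, -1.27 and -0.12. Stat2, a part of ISGF3, had 38.3, 25.03, 25.4 and 32.1 TPM in DCIR-/- colon in the same order, against 25.7, 17.8, 22.1 and 24.3 TPM in wild type. Irf9, the DNA-binding part of ISGF3, had 43.9, 36.3, 27.6 and 36.3 TPM in DCIR-/- colon, against 37.4, 31.1, 25.1 and 32.4 TPM in wild type. As deposited, Stat2 and Irf9 were higher in DCIR-/- at all 4 stages, by log2 differences of 0.19 to 0.56 for Stat2 and 0.13 to 0.22 for Irf9. With median-of-ratios scaling (factors of 1.06 in DCIR-/- and 0.913 in wild-type non-polyp colon) both orders turned round in non-polyp colon. The order of Irf9 in polyps turned round with that scaling and with FPKM. Irf9 varied least of the 3 factors. The Irf9 annotation shares 123 bases on the same strand with Rnf31, and Irf7 shares 45 bases on the opposite strand with Phrf1, so some reads may be shared.

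Zbp1, a sensor of Z-form nucleic acid that can trigger necroptosis, was the most abundant of the 6 sensors by mean TPM. Its levels over the 4 stages were 100.1, 45.3, 33.8 and 39.0 TPM in DCIR-/- colon, against 49.96, 53.7, 37.1 and 44.2 TPM in wild type. DCIR-/- was higher at steady state only. Ddx58, which encodes the RNA sensor RIG-I, had 24.97, 10.97, 16.1 and 18.8 TPM in DCIR-/- colon, against 13.1, 12.3, 13.4 and 18.4 TPM in wild type. Ifih1, which encodes the long double-stranded RNA sensor MDA5, had 49.8, 25.2, 10.97 and 14.6 TPM in DCIR-/- colon, against 36.2, 19.6, 19.3 and 10.8 TPM in wild type. Ifih1 was above its wild-type pair at 3 stages and below it in non-polyp colon.

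Ddx60, a helicase linked to RIG-I signalling, spanned the widest range of the sensors, with 54.4, 8.82, 4.26 and 4.86 TPM in DCIR-/- colon, against 28.3, 7.61, 10.8 and 2.77 TPM in wild type. Both steady-state libraries lay above all 6 others. Dhx58, which encodes the RIG-I-like regulator LGP2, had 40.5, 12.2, 9.70 and 15.3 TPM in DCIR-/- colon, against 24.0, 13.8, 19.2 and 15.3 TPM in wild type. Eif2ak2, which encodes the kinase PKR that halts translation on double-stranded RNA, had 44.7, 22.0, 31.0 and 36.0 TPM in DCIR-/- colon, against 36.3, 27.5, 25.3 and 27.6 TPM in wild type. Its difference was negative after DSS, and at steady state was the smallest of the sensors, at 0.29.

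**Figure D3:**
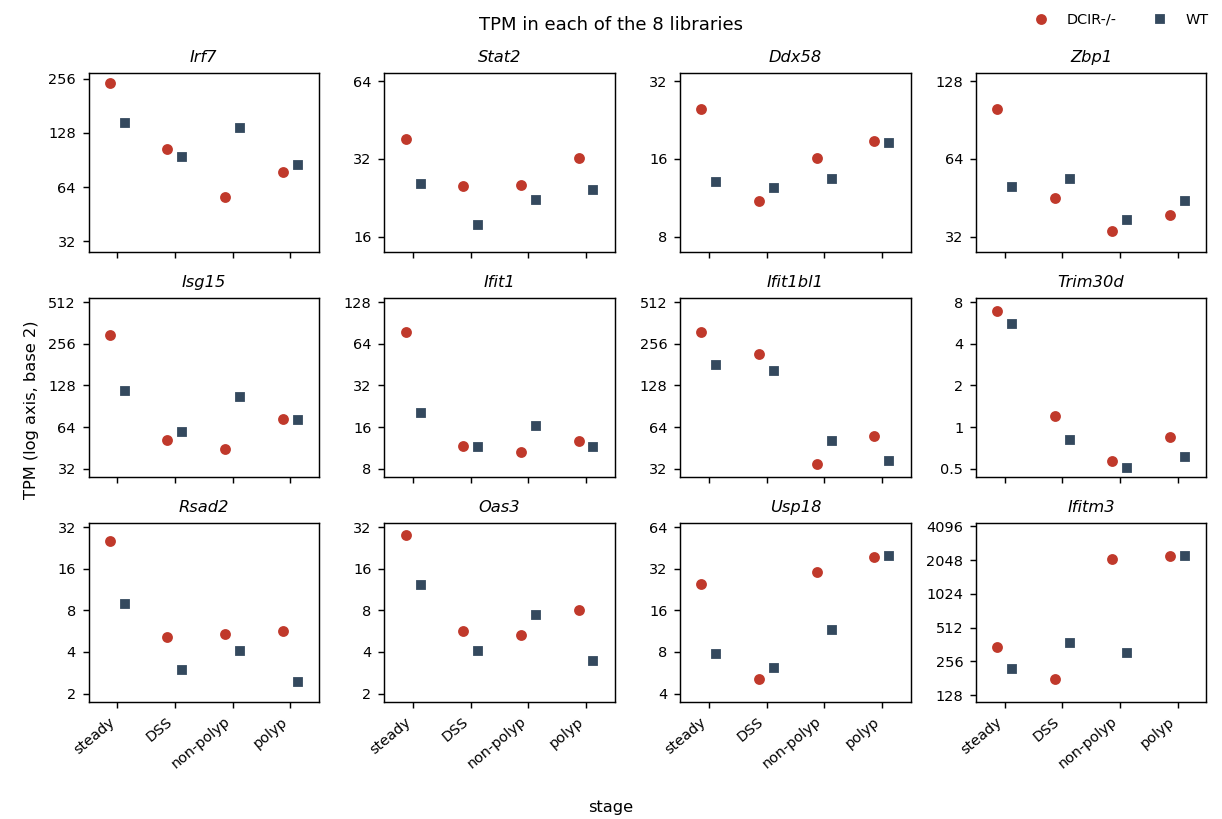
TPM of 12 genes (panels, log axis of base 2, each with its own range) at the 4 stages, with circles for DCIR-/- and squares for wild type and 1 library per symbol. Irf7, Isg15, Ifit1 and Oas3 are highest in DCIR-/- at steady state, Trim30d and Ifit1bl1 are low on day 112 in both genotypes, and Usp18 and Ifitm3 are high in DCIR-/- non-polyp colon and in both polyp libraries.

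Isg15 (ENSMUSG00000035692, chromosome 4, 156199424 to 156200818) encodes a ubiquitin-like protein that is joined to other proteins in interferon-treated cells. It had 294, 52.0, 44.9 and 73.0 TPM in DCIR-/- colon over the 4 stages, against 117, 58.7, 106 and 72.5 TPM in wild type. The level in DCIR-/- was 2.52 times the wild-type level at steady state and 0.424 times in non-polyp colon. Herc6, the ligase that attaches ISG15 in mouse, had 20.9, 5.46, 4.04 and 4.59 TPM in DCIR-/- colon, against 9.69, 5.73, 4.08 and 3.09 TPM in wild type. Herc6 differed from its pair by a log2 value of 1.04 at steady state and by 0.45 or less at the other stages. Its transcripts share 12% of their 50-base words with the overlapping predicted gene Gm45193 on the same strand, so its level is uncertain.

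Usp18, the protease that removes ISG15 and dampens the interferon receptor, did not follow Isg15. It had 24.6, 5.10, 30.1 and 38.9 TPM in DCIR-/- colon, against 7.73, 6.09, 11.5 and 39.6 TPM in wild type. DCIR-/- was higher at steady state and in non-polyp colon, with log2 differences of 1.55 and 1.32, and both polyp libraries lay above all others.

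The IFIT genes encode proteins that bind foreign RNA ends and lie together on chromosome 19. Ifit1 (chromosome 19, 34640871 to 34650009) had 78.4, 11.7, 10.5 and 12.8 TPM in DCIR-/- colon, against 20.4, 11.5, 16.3 and 11.5 TPM in wild type. Ifit2 had 35.8, 8.47, 11.4 and 13.6 TPM in DCIR-/- colon, against 9.25, 10.1, 11.6 and 10.3 TPM in wild type. For both genes the library labelled DCIR-/- at steady state was more than 2-fold above each of the 7 others. Ifit3 had 20.8, 5.42, 3.47 and 5.83 TPM in DCIR-/- colon, against 6.79, 7.06, 4.74 and 4.22 TPM in wild type, and Ifit3b had 22.4, 7.43, 4.77 and 8.62 TPM in DCIR-/- colon, against 10.1, 8.13, 4.32 and 4.94 TPM in wild type. Ifit3 and Ifit3b share 51.2% and 44.5% of their 50-base words with each other, so reads may be split between them. Ifit1bl1 was far more abundant than the other 4 and behaved differently, with 311, 215, 34.9 and 55.6 TPM in DCIR-/- colon, against 179, 164, 50.9 and 36.5 TPM in wild type. Its levels were high at steady state and after DSS and low on day 112 in both genotypes.

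Oligoadenylate synthetases make the messenger that activates RNase L, and of the OAS-like proteins of the mouse OASL1 lacks that activity. Oas3 had 27.9, 5.70, 5.34 and 8.08 TPM in DCIR-/- colon, against 12.2, 4.07, 7.38 and 3.44 TPM in wild type. Oas2 had 13.5, 3.05, 3.86 and 8.36 TPM in DCIR-/- colon, against 7.90, 3.03, 9.83 and 6.45 TPM in wild type. Both were higher in DCIR-/- at steady state and in polyps, and lower in non-polyp colon. Oasl2 had 125, 33.6, 19.9 and 26.3 TPM in DCIR-/- colon, against 54.0, 22.3, 30.8 and 23.4 TPM in wild type, and Oasl1, a translational inhibitor of IRF7 in mouse, had 115, 76.9, 37.0 and 38.5 TPM in DCIR-/- colon, against 96.9, 58.9, 47.4 and 47.3 TPM in wild type. Oasl1 stepped down from steady state to DSS to day 112 in both genotypes with small differences between them. Oas1b was low throughout, between 1.18 and 5.95 TPM.

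Among other antiviral effectors, Rsad2, which encodes viperin, had 25.3, 5.15, 5.38 and 5.66 TPM in DCIR-/- colon, against 8.82, 2.95, 4.06 and 2.42 TPM in wild type. Its neighbour Cmpk2, a mitochondrial nucleotide kinase gene, had 26.8, 8.89, 7.77 and 12.98 TPM in DCIR-/- colon, against 11.2, 8.51, 6.67 and 6.80 TPM in wild type. DCIR-/- exceeded wild type at all 4 stages for both genes. Sp100, a nuclear body protein gene, had 31.1, 8.52, 4.68 and 4.48 TPM in DCIR-/- colon, against 8.51, 7.42, 5.07 and 4.47 TPM in wild type, so it differed at steady state and by little elsewhere. The dynamin-like GTPase genes Mx1 and Mx2 had 8.95 and 8.78 TPM in DCIR-/- at steady state, against 3.78 and 2.78 TPM in wild type, and between 1.21 and 3.89 TPM in the 6 other libraries. Bst2, which encodes the virion tether tetherin, was lower in DCIR-/- after DSS, in non-polyp colon and in polyps, with log2 differences of -0.64, -0.61 and -0.26.

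The PARP genes Parp9, Parp12 and Parp14 and the PARP9 partner Dtx3l were each higher in DCIR-/- at steady state, by log2 differences of 0.37 to 0.71. Parp12 had 108, 76.9, 26.4 and 33.7 TPM in DCIR-/- colon, against 83.4, 61.3, 50.8 and 32.5 TPM in wild type, and so was lower on day 112 than before in both genotypes. Dtx3l had 46.0, 24.0, 20.4 and 28.6 TPM in DCIR-/- colon, against 29.5, 26.1, 13.2 and 16.8 TPM in wild type. Parp9 and Dtx3l overlap by 682 bases on opposite strands, and whether counting used strand is not given in the sources used here.

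Ifi44 (chromosome 3, 151730922 to 151749960), a microtubule-associated antiviral gene, had the largest difference at steady state, 2.06 on the log2 scale. It had 21.4, 0.982, 5.48 and 9.89 TPM in DCIR-/- colon, against 4.36, 4.45, 4.19 and 10.8 TPM in wild type, so the order of the genotypes turned round after DSS. Ifi27l2a, a mitochondrial protein gene and the most abundant of the other induced genes by mean TPM, had 395, 99.3, 56.7 and 69.4 TPM in DCIR-/- colon, against 248, 151, 303 and 90.1 TPM in wild type. Xaf1, a pro-apoptotic factor gene, had 16.9, 9.02, 6.48 and 20.6 TPM in DCIR-/- colon, against 12.4, 7.71, 33.1 and 8.36 TPM in wild type. For Ifi27l2a and Xaf1 the wild-type non-polyp library stood well above the DCIR-/- one. Ifi27 differed by 0.05 at steady state, the smallest difference of the 43, and Epsti1 by 0.21.

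After DSS the genotypes were close. Of the 43 genes, 21 were higher and 22 lower in DCIR-/-, against 43.6% and 56.1% of all genes tested, with a median log2 difference of -0.05, the same as over all genes at this rounding. At least 2-fold higher were 0 genes, against 1.86% of all genes tested, and 2 were at least 2-fold lower, Ifi44 and Ifitm3, against 2.8%. The role medians ran from -0.17 for the ISG15 system to 0.38 for the OAS genes. Rsad2, Oasl2 and Stat2 had the largest positive differences, at 0.64, 0.57 and 0.47. Neutrophil markers summed to 5.04 TPM in DCIR-/- and 233 TPM in wild type at that stage, and their part in these differences was not tested.

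In non-polyp colon the genes lay apart in both directions. The library labelled DCIR-/- was lower for 29 of 43 genes and higher for 14, against 38.4% and 61.4% of all genes tested, with a median log2 difference of -0.36, against 0.21 over all genes, and the count of lower genes was 34 with median-of-ratios scaling. At least 2-fold lower were 8 genes, Ifi27l2a, Xaf1, Ifi27, Irf7, Isg15, Ddx60, Oas2 and Oas1b, against 9.94% of all genes tested. At least 2-fold higher were 2, Ifitm3 and Usp18, against 14.7%. All 5 OAS genes kept were lower, with a median of -0.61, and other induced genes had a median of -0.73. Smooth muscle markers summed to 389 TPM in the library labelled DCIR-/- non-polyp, against 5209.7 TPM in wild type, and neutrophil markers to 688 TPM against 49.7 TPM. Genotype and this difference in tissue makeup cannot be told apart in that pair.

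In polyps DCIR-/- was higher for 33 of 43 genes as deposited, against 63.1% of all genes tested, with a median log2 difference of 0.20, against 0.13 over all genes. The count was 22 with median-of-ratios scaling and 23 with FPKM. At least 2-fold higher were 2 genes, Xaf1 and Oas3, with log2 differences of 1.21 and 1.03, against 3.67% of all genes tested, and 0 were at least 2-fold lower, against 2.24%. All 5 IFIT genes were higher in DCIR-/- as deposited, by 0.15 to 0.69. Ifit1 had the smallest and Ifit3b the largest of these differences.

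Over all 4 stages, no gene of the 43 passed the genotype test, as was so for all 16855 genes (limma, Benjamini-Hochberg adjusted p under 0.05, 0% called). At an unadjusted p under 0.05 were 2 of 43 genes, Rsad2 and Stat2, both higher. This was 4.65%, against 3.45% of all genes tested in that direction and 4.37% in either, so the count says nothing particular of the 43. Rsad2 was higher by 0.84 ± 0.24 and Stat2 by 0.40 ± 0.14 on the log2 scale (SE, 8 libraries, limma adjusted p = 0.705 for both). Dtx3l and Cmpk2 followed, at 0.46 ± 0.19 and 0.57 ± 0.25 (limma adjusted p = 0.705 for both). The fitted difference was positive for 30 of 43 genes, against 64.5% of all genes, with a median of 0.20 against 0.10. Without either steady-state library the median was 0.03 with 22 genes positive, and without either non-polyp library it was 0.35 with 38 positive.

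Both genotypes together, the genes stood lower after DSS than at steady state. All 43 fitted differences were negative as deposited and 42 were with FPKM or median-of-ratios scaling, against 64.7% of all genes, with a median of -0.90 against -0.12 over all genes. No gene passed (limma, 0 of 16855, 0% called). At an unadjusted p under 0.05 were 19 of 43 genes, all lower, against 4.22% of all genes tested in that direction and 5.36% in either. Trim30d had a log2 difference of -1.85 ± 0.28 (limma adjusted p = 0.777), Rsad2 of -1.70 ± 0.34 (limma adjusted p = 0.835), and Ddx60 and Oas3 of -2.13 ± 0.52 and -1.74 ± 0.43 (limma adjusted p = 0.862 for both). By role, the medians were -1.49 for OAS, -1.21 for the ISG15 system, -0.93 for other effectors, -0.88 for IFIT, -0.80 for sensors, -0.73 for other induced genes, -0.57 for PARP and DTX3L and -0.55 for the transcription factors.

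The gap between DSS and steady state was wider in DCIR-/-, where the steady-state level was higher. The median of the 43 differences between DSS and steady state was -1.47 in DCIR-/- and -0.39 in wild type, and no test of that difference was possible with 1 library a group. Of the 43 genes, 27 were at least 2-fold lower after DSS in DCIR-/-, against 7.42% of all genes, and 6 in wild type, against 3.73%. In 33 of 43 genes both steady-state libraries lay above both DSS libraries, against 34.7% of all genes tested. Without the steady-state library labelled DCIR-/-, the median of the fitted differences was -0.44 with 39 genes negative.

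**Figure D4:**
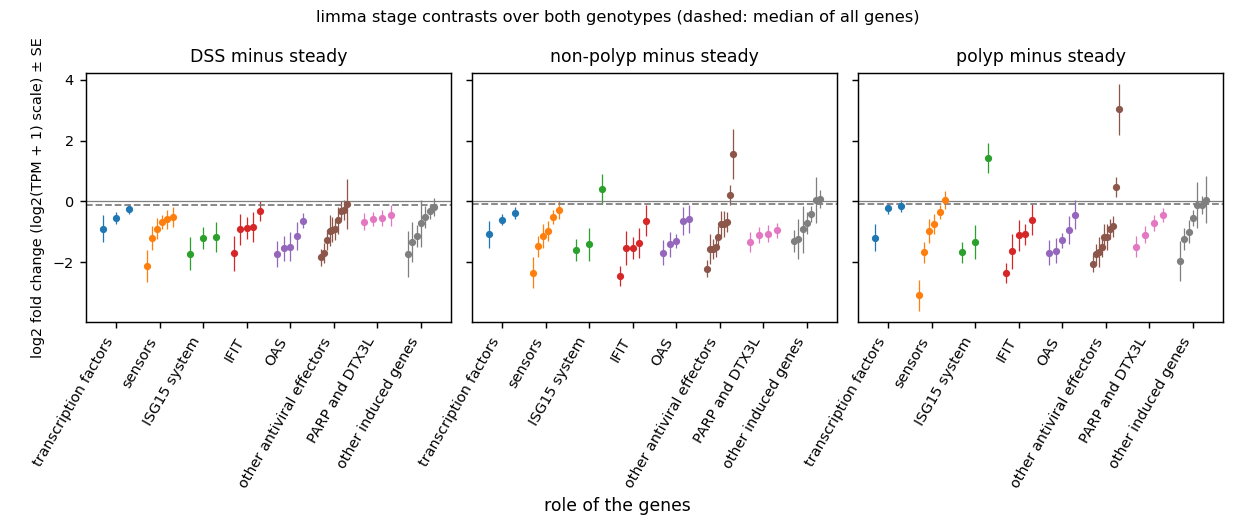
Fitted log2 difference of each of the 43 genes from steady state, over both genotypes, after DSS, in non-polyp colon and in polyps (panels), with the SE from limma as bars, genes grouped by role and a dashed line for the median of all genes. Nearly all points lie below 0, and Ifitm3 and Usp18 lie above it in polyps at 3.03 and 1.43.

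Between polyps and steady state 2 of the 43 genes passed the test, both lower, against 0.629% of all genes tested called lower and 0.819% in either direction (limma adjusted p under 0.05; 106 lower and 32 higher, or 44 lower and 28 higher with median-of-ratios scaling). Trim30d (chromosome 7, 104470014 to 104507849), a member of the TRIM30 family of which TRIM30A restrains NF-kappaB signalling in mouse, had 0.854 and 0.610 TPM in DCIR-/- and wild-type polyps, against 6.90 and 5.53 TPM in DCIR-/- and wild type at steady state. It fell by 2.06 ± 0.28 on the log2 scale (limma adjusted p = 0.0490), and its 4 non-polyp and DSS levels lay between 0.506 and 1.20 TPM. Ifit1bl1 (chromosome 19, 34592888 to 34601968) had 55.6 and 36.5 TPM in DCIR-/- and wild-type polyps, against 311 and 179 TPM in DCIR-/- and wild type at steady state. It fell by 2.36 ± 0.33 (limma adjusted p = 0.0490). Both calls were lost with FPKM, with median-of-ratios scaling and with no filter on low values, and on leaving out any steady-state, DSS or polyp library.

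Ddx60 and Oasl1 came next, at -3.10 ± 0.52 (limma adjusted p = 0.0549) and -1.28 ± 0.24 (limma adjusted p = 0.0605). At an unadjusted p under 0.05 were 26 of 43 genes, 24 lower and 2 higher, against 18.5% and 12% of all genes tested. In 32 of 43 genes both polyp libraries lay below both steady-state libraries, against 37.6% of all genes tested, and in 3, Usp18, Bst2 and Ifitm3, they lay above, against 30.2%. Fitted differences were negative for 38 of 43 genes, against 54.5% of all genes, and their median was -1.09, against -0.08 over all genes, and by role it ran from -1.34 for the ISG15 system, -1.28 for OAS, -1.17 for other effectors and -1.13 for IFIT to -0.87 for sensors and -0.23 for the transcription factors. Marker levels moved with this contrast too. Smooth muscle markers summed to 252 and 398 TPM in DCIR-/- and wild-type polyps, against 3547 and 3294 TPM in DCIR-/- and wild type at steady state, and epithelial markers to 4871 and 4703 TPM against 8334 and 8640.1 TPM. Neutrophil markers summed to 492 and 499.7 TPM in DCIR-/- and wild-type polyps, against 5.77 and 4.33 TPM in DCIR-/- and wild type at steady state, and plasmacytoid dendritic cell markers to 74.0 and 95.9 TPM against 18.0 and 11.1 TPM. Their part in the result was not tested, and the differences in Xist and gland genes given above cannot be told apart from it.

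More genes were called when a non-polyp library was left out. For Ifih1, Irf7 and Isg15 the fit to all 8 libraries gave the same differences as below. Its SEs were larger, at 0.35, 0.45 and 0.55. A stage left with 1 library is fitted exactly, so disagreement between the 2 non-polyp libraries no longer entered the spread. Without the library labelled DCIR-/- non-polyp, 22 of 43 genes passed between polyps and steady state, 21 lower and 1 higher, against 15.4% and 10.4% of all genes tested. Without wild-type non-polyp colon the fitted differences were the same. Without both non-polyp libraries 22 passed, Ifitm3 higher and the others lower, against 15.3% of all genes tested called lower and 10.4% called higher. Ifih1, Irf7 and Isg15 were among these 22, at -1.68 ± 0.17, -1.20 ± 0.23 and -1.34 ± 0.37 without both non-polyp libraries (limma adjusted p = 0.00389, 0.0172 and 0.0485). Dhx58 passed in the fits with 22. Such fits all keep the same 2 libraries a stage at steady state, after DSS and in polyps, so the genes they share are no separate check. They were partly chosen after the data were examined.

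Non-polyp colon also stood below steady state, with 38 of 43 fitted differences negative, against 57.6% of all genes tested, and a median of -1.08, against -0.10 over all genes. No gene of the 43 passed, against 0.326% of all genes tested (limma). At an unadjusted p under 0.05 were 24 genes, all lower, against 11.8% of all genes. Trim30d came nearest, at -2.22 ± 0.28 (limma adjusted p = 0.0600), followed by Ifit1bl1 at -2.46 ± 0.33 (limma adjusted p = 0.0685), Oasl1 at -1.31 ± 0.24 (limma adjusted p = 0.106) and Trim30a at -1.57 ± 0.33 (limma adjusted p = 0.128). The median of the single-pair differences was -1.61 in DCIR-/- and -0.42 in wild type. Without wild-type non-polyp colon 19 of the 43 genes passed, 18 lower and 1 higher, against 7.94% and 5.34% of all genes tested, and without the library labelled DCIR-/- non-polyp 1 passed, Ifit1bl1, which was lower, against 0.303%. Each of these fits has a single non-polyp library, assumed to vary like the other groups, and in the fit with 19 it is the one that resembled the polyps in Wif1.

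Between polyps and non-polyp colon, no shared direction was seen. No gene of the 43 and none of the 16855 passed (limma, 0% called), 0 of 43 and 2.94% of all genes were at an unadjusted p under 0.05, and 24 of 43 fitted differences were positive, against 54.1% of all genes. Within DCIR-/- the polyp library was higher for 40 of 43 genes, against 50.7% of all genes, with a median of 0.33. Within wild type it was lower for 29 of 43, against 45.8% of all genes, with a median of -0.35. The pooled median of 0.03 turned to -0.47 without the library labelled DCIR-/- non-polyp.

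Ifitm3 (ENSMUSG00000025492, chromosome 7, 141009586 to 141010770) encodes a membrane protein that blocks viral fusion. It made up most of the summed level of the 43 genes in the library labelled DCIR-/- non-polyp (70.7%) and in both polyp libraries. In the 5 other libraries its share was 9.98% to 22.0%. It had 341, 177, 2105 and 2235 TPM in DCIR-/- colon, against 218, 372, 305 and 2224 TPM in wild type. The library labelled DCIR-/- non-polyp and both polyp libraries stood apart from the 5 others, which held 177 to 372 TPM. The same 3 libraries stood apart in summed markers, with neutrophil markers at 492 to 688 TPM, against 4.33 to 233 TPM in the 5 others, plasmacytoid dendritic cell markers at 47.5 to 95.9 TPM against 11.03 to 18.7 TPM, and smooth muscle markers at 252 to 398 TPM against 2699 to 5209.7 TPM. Their part in the level of Ifitm3 was not tested. Ifitm3 made up 66.3% and 66.6% of the summed level in DCIR-/- and wild-type polyps, against 9.98% and 10.7% in DCIR-/- and wild type at steady state. The other 42 genes summed to 3080.1, 1331, 870.3 and 1136 TPM in DCIR-/- colon, against 1821, 1321, 1542 and 1117 TPM in wild type.

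A pair of relatives of Ifitm3 that were not among the 43 showed the same division of the libraries. Ifitm1 had 973, 905 and 879 TPM in the library labelled DCIR-/- non-polyp and in DCIR-/- and wild-type polyps, against 26.6 to 71.1 TPM in the 5 others. Ifitm2 had 1079.6, 1141 and 1102 TPM in those 3 libraries, against 294 to 497 TPM in the 5 others. The Ifitm3 window holds 2 matches to the ISRE core, both of which lie after the annotated start. Tmem173, which encodes the adaptor STING, was also higher in those 3 libraries, at 135, 148 and 114 TPM, against 8.204 to 27.5 TPM in the 5 others. Usp18 was higher there by a narrower gap, at 30.1, 38.9 and 39.6 TPM against 5.10 to 24.6 TPM. The value of 24.6 TPM was in the library labelled DCIR-/- at steady state.

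**Figure D5:**
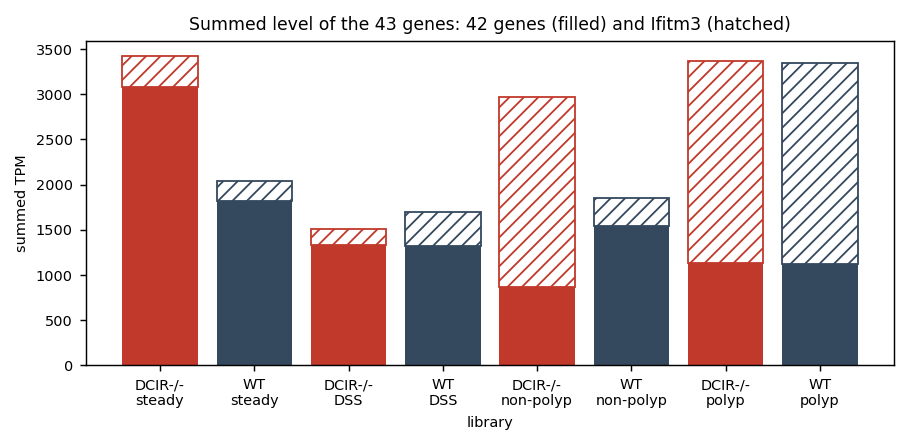
Summed TPM of the 43 genes in each of the 8 libraries, with filled bars for 42 genes and hatched bars for Ifitm3. The filled part is 3080.1 TPM in DCIR-/- at steady state and 870.3 to 1821 TPM in the 7 other libraries, and the hatched part dominates in DCIR-/- non-polyp colon and in both polyp libraries.

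The ligands of the pathway were at or near 0. All 14 interferon alpha and alpha-like genes listed, Ifnb1 for interferon beta, and Ifnl2 and Ifnl3 for type III interferon were listed at 0 TPM in every library. Ifng was listed at 0 except for 0.270 TPM in wild-type DSS colon and 0.154 TPM in wild-type non-polyp colon, and Ifne and Ifnk did not exceed 0.237 TPM. The receptors were present, with Ifnar1 at 20.1 to 42.6 TPM, Ifnar2 at 18.9 to 39.1 TPM and the type III receptor gene Ifnlr1 at 6.63 to 10.9 TPM.

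Receptors and kinases differed less between the genotypes at steady state than the induced genes. The 9 of them had a median log2 difference of 0.13, and the 11 upstream sensors and adaptors kept, such as Mavs and Tbk1, had 0.23. Of 34 further induced genes outside the 43, 29 were higher in the library labelled DCIR-/- at steady state, with a median of 0.64, against 63% and 0.09 over all genes tested. They included the ISG15 enzymes Uba7, at 47.9 TPM in DCIR-/- against 26.5 TPM in wild type, and Ube2l6, at 36.0 TPM in DCIR-/- against 21.6 TPM in wild type. Of the 65 other pathway genes kept, 0 passed in the 5 contrasts (limma), where 0% to 0.819% of all genes passed, so the count says nothing particular of these genes. Between polyps and steady state 27 of the 65 were at an unadjusted p under 0.05, against 30.5% of all genes in either direction. Of the 65, 22 were lower, against 18.5% of all genes, and 5 higher, against 12%.

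At steady state the differences of genes with and without the ISRE core overlapped. The 16 genes with a match in their window had a median log2 difference of 0.84, between 0.27 and 1.89, and the 15 genes with a window and no match had 0.63, between 0.21 and 2.06. In each of these sets 6 genes were at least 2-fold higher in the library labelled DCIR-/-. Ifit1 led the genes with the motif, and Ifi44 those without. The 12 genes with no window had a median of 0.72. A lack of a match means only that the exact core was absent from the window. The part of the motif in these differences was not tested.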

How the data were processed

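RNA was sequenced from 8 colon libraries of BALB/cA mice, 1 per group, with 3 residual degrees of freedom in the additive fit. The deposited tables give coverage (a signal of mean depth per base), FPKM and TPM per gene, as the authors made them. The submitters' processing notes name StringTie, GRCm38 and mm10, and give no versions used here. Of the 8 tables, 6 hold annotated genes together with assembled loci, and the deposited TPM column covers both. In those 6 the assembled loci alone sum to about 1000000 TPM, and the annotated genes to between 895587 and 940132 TPM. The DSS tables hold no assembled loci. Their annotated genes sum to 917531 TPM in DCIR-/- and 915219 TPM in wild type.

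Annotated genes were read by identifier. Values of 10 genes departed from the library's constant ratio of TPM to FPKM by more than 0.1%, and 13 genes had several entries; both sets were left out, and none was among the genes reported. Genes with a mean of at least 1 TPM were tested on log2(TPM + 1) with limma 3.58.1 in R 4.3.3, with an intensity trend, stage and genotype as terms and Benjamini-Hochberg adjustment over 16855 genes. The pseudocount of 1 understates changes of low genes. Pairs of single libraries were given as differences with no test, and 2-fold was the limit of size. The genotype test was tried on simulated data with independent noise, and the stage contrasts were not tried in that way. Depth in reads is unknown, so no counting intervals are given. P-values rest on what the additive fit to these libraries leaves over, and nothing states that the libraries are separate animals. With 1 library per group, this remainder mixes noise with any genotype difference that varies by stage. Such a difference widens the SEs, so a lack of calls does not show that levels were alike.

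Named per role were the genes with the highest mean TPM, those with the largest difference in each pair and those past the threshold. Other genes were named after their values were seen, among them the 4 with the smallest p-values in a contrast, Ifih1, Irf7 and Isg15 in the fits without a non-polyp library, and Tmem173, Uba7, Ube2l6, Ifitm1 and Ifitm2 outside the 43. The genes and lists were chosen with earlier results of these data known. Promoters came from RefSeq on GRCm38.p6, and shared 50-base words from the GENCODE M21 transcripts. Alternatives were a pseudocount of 0.1, no filter, FPKM, median-of-ratios scaling, no intensity trend, leaving out each library, and, chosen after seeing the data, assembled loci matched at 80% reciprocal overlap and leaving out both non-polyp libraries.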

Additional observations from a re-analysis of the deposited data

Results flagged for a closer look

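For 4 of the 43 genes, the DCIR-/- and wild-type libraries differed by at least 2-fold in opposite directions at different stages. The difference between stages was not tested, since each group is 1 library. For Isg15 the log2 difference was 1.32 at steady state and -1.22 in non-polyp colon. For Ifitm3 it was 2.78 in non-polyp colon and -1.07 after DSS. For Ifi44 it was 2.06 at steady state and -1.46 after DSS. For Xaf1 it was 1.21 in polyps and -2.19 in non-polyp colon. All 4 genes include a value from the library labelled DCIR-/- at steady state or from the one labelled DCIR-/- non-polyp, whose labels were in doubt.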

How the results depend on the processing

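No paired analysis was possible because each group holds 1 library, so the groups share no more than 1 replicate number. Of the alternatives to the main counts and medians, 195 stayed within their limits, 53 moved and 1 turned round, and the cause was not tested. Between non-polyp colon and steady state, 13 genes were called with no filter, and 1 of the 43 with no intensity trend. Between polyps and non-polyp colon, 1 gene was called with FPKM. Between polyps and steady state, the genes called numbered 15 with no filter, 58 with FPKM, 72 with median-of-ratios scaling, 79 with no intensity trend and 4337 without both non-polyp libraries. Of the 43 genes, the called numbered 1 with the pseudocount of 0.1, 0 with no filter, 0 with FPKM, 0 with median-of-ratios scaling, 1 with no intensity trend and 22 without both non-polyp libraries. The polyp pair had 4 genes at least 2-fold higher in DCIR-/- with the pseudocount of 0.1, 0 with FPKM, 1 with median-of-ratios scaling and 1 with assembled loci, and the non-polyp pair had 5 at least 2-fold lower with assembled loci. Leaving out 1 library each, the genotype fit called 0 to 1 genes, and its median ran from 0.03 to 0.35. The DSS median ran from -1.34 to -0.44. Between non-polyp colon and steady state, 9 to 2238 genes and 0 to 19 of the 43 were called, with medians of -1.57 to -0.53. Between polyps and non-polyp colon, 0 to 1529 genes and 0 to 3 of the 43 were called, with medians of -0.47 to 0.38, the first without the library labelled DCIR-/- non-polyp. Between polyps and steady state, 0 to 4340 genes and 0 to 22 of the 43 were called, with medians of -1.51 to -0.59. The adjusted p of Trim30d and Ifit1bl1 between polyps and steady state reached 0.434 without wild-type polyps.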
